A study of Drosophila melanogaster with 16 samples.

Results

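The male X chromosome held 21554 of the 137860 peaks in 4 deposited peak lists for histone marks in heads of ageing fruit flies (*Drosophila melanogaster*). Every peak on X was taken, with no threshold beyond that of the deposited lists. The X peaks were 6251 of 43871 for H3K4me1 at day 10, 5572 of 41851 for H3K4me1 at day 50, 4837 of 26699 for H3K27ac at day 10 and 4894 of 25439 for H3K27ac at day 50. They were set beside the peaks of the autosomal arms 2L, 3L and 3R.

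The flies were males of the strain w1118, given as wild type (WT) in the labels, kept at 25 °C and taken at day 10 (D10) or day 50 (D50) of adult life. The strain carries a partial deletion of the X-linked gene white, which all groups share. The 16 samples comprised, for each mark and day, 2 chromatin immunoprecipitation (ChIP) samples and 2 inputs, which gives 8 groups. Each replicate came from 50 mg of pooled heads, so neurons, glia, photoreceptors, fat and muscle of the head were mixed, and chromatin was cut with micrococcal nuclease and briefly sonicated. The 2 replicates were pooled before the peaks were called, so each mark and day had 1 list. Neither the spread of replicates nor a test of age could be had, and every contrast of days compares 1 list with another. The exact (Clopper-Pearson) 95% intervals given with shares cover counting error only.

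Male flies carry a single X and a pair of each autosome, and they raise transcription from the X through dosage compensation. The MSL complex, which contains the acetyltransferase MOF and the noncoding RNAs roX1 and roX2, coats active X-linked genes and acetylates histone H4 at lysine 16 over their bodies. H3K4me1, monomethylation of histone H3 at lysine 4, lies at enhancers and within transcribed genes. H3K27ac, acetylation of lysine 27, lies at active promoters and enhancers.

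The labels were checked against the peaks. The neuronal genes elav and nSyb, the active zone gene brp and the glial gene repo held H3K4me1 peaks at both ages, with 21.7%, 53.6%, 26.5% and 47.3% of their gene regions covered at day 10. A gene region runs from 1000 bp before a gene to 1000 bp after it. Both roX genes, which are transcribed in males, held peaks of both marks. The photoreceptor gene chp had 3.68% of its region under H3K4me1 at day 10 and 0% at day 50. H3K27ac covered 24.0%, 15.2% and 20.4% of the elav, nSyb and brp regions at day 10, while repo and chp had no H3K27ac peak at either age. On Y, 0 H3K4me1 peaks were listed at day 10 and 1 at day 50, with 2 and 0 for H3K27ac. Y thus held 3 peaks in the 4 lists.

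For H3K4me1 the X was sparser than the arms, while for H3K27ac its order beside them depended on the denominator. The X had 266 H3K4me1 peaks per Mb at day 10, against 332 on 2L, 324 on 3L and 357 on 3R. At day 50 it had 237, against 319, 309 and 339. The X was below each arm at both ages. The X had 205 H3K27ac peaks per Mb at day 10, inside the range of the arms (198 to 206), and 208 at day 50, above their range (184 to 191). Without gene-poor bins the H3K27ac density of X was below the mean of the arms at day 10 (-0.071 on the log2 scale) and 0.053 above it at day 50. Among peaks with a fold of at least 3, X had 71.5 H3K27ac peaks per Mb at day 10, against a mean of 45.3 on the arms.

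The arms differ in gene density, so the peaks were also counted per gene. X carried 93.3 protein-coding genes per Mb, against 113, 97.8 and 106 on 2L, 3L and 3R, and its median gene was longer (2.52 kb against 1.99 to 2.13 kb). Per 100 protein-coding genes X had 285 H3K4me1 peaks at day 10 and 254 at day 50, below all 3 arms (293 to 337 and 281 to 320). It had 220 H3K27ac peaks at day 10 and 223 at day 50, above all 3 arms (181 to 203 and 162 to 189). With the genes as denominator, the deficit of H3K4me1 on X was smaller and the excess of H3K27ac larger.

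**Figure D1:**
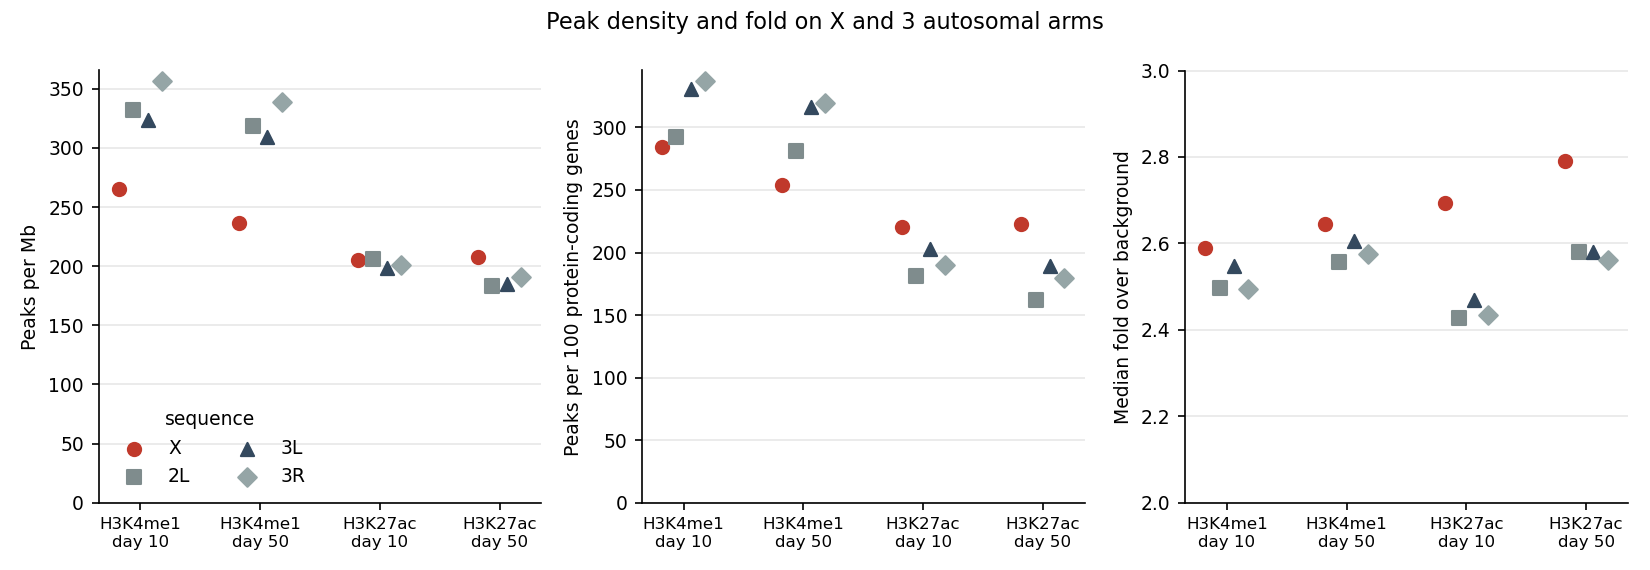
Peaks per Mb, peaks per 100 protein-coding genes and the median fold of the peaks (vertical axes; the fold axis runs from 2 to 3) in the 4 lists (horizontal axis), with 1 point for X and 1 for each of 2L, 3L and 3R. X is lowest for H3K4me1 in the first and second panels, highest for H3K27ac in the second, and highest in all 4 lists for the median fold.

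The balance of the marks on X differed from that on each arm. The number of H3K4me1 peaks for each H3K27ac peak was 1.29 on X at day 10, against 1.61, 1.63 and 1.77 on 2L, 3L and 3R. At day 50 it was 1.14 on X, against 1.73, 1.67 and 1.78. The X was thus further from the arms in the older flies. In bases, H3K4me1 peaks covered 11.7% of X at day 10 and 10.3% at day 50, against 12.8% to 14.5% and 12.5% to 14.1% of the arms. H3K27ac peaks covered 7.0% and 7.31% of X, against 6.69% to 7.11% and 6.29% to 6.91%.

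The deposited fold of a peak, its enrichment over the background that the authors' peak caller used there, was slightly higher on X. For H3K27ac the median fold on X was 2.69 at day 10 and 2.79 at day 50, against 2.43 to 2.47 and 2.56 to 2.58 on the arms. A fold of at least 3 was reached by 34.8% of the X H3K27ac peaks at day 10 and by 41.2% at day 50, against 21.2% to 23.7% and 29.6% to 30.5%. For H3K4me1 the median was 2.59 and 2.64 on X, against 2.49 to 2.55 and 2.56 to 2.6. There the upper tail went the other way, since the 90th percentile was 3.28 and 3.32 on X and 3.50 to 3.57 and 3.57 to 3.64 on the arms. The direction of the H3K4me1 difference turned in the stronger peaks: among those with a fold of at least 3 the medians at day 10 were 3.28 on X and 3.41 over the arms.

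The fold and the −log10 p of a peak together fix the ChIP reads at its summit (the pileup) and the background it was compared with. All 137860 peaks gave a whole number of ChIP reads, within 0.001 in −log10 p, when 1 was added to pileup and background and the H3K27ac pileups were scaled by 1 factor per list (0.945 at day 10 and 0.985 at day 50). In each list many peaks shared 1 background value, and no peak lay below it. This lowest value was 16.4 and 15.3 reads for H3K4me1 at day 10 and day 50, and 16.2 and 16 reads for H3K27ac. MACS2, the peak caller named in the submitters' processing notes, is known to use the larger of a genome-wide and a local background.

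Most X peaks had this lowest background. For H3K4me1 these were 93.0% of the X peaks at day 10 (interval 92.3% to 93.6%; 22.3% over the whole list) and 5016 of 5572 at day 50 (interval 89.2% to 90.8%; 20.7% over the whole list). On the arms the share was 8.62% to 14.4% at day 10 and 8.23% to 13.2% at day 50. For H3K27ac it was 66.7% of the X peaks at day 10 (20.8% over the whole list) and 52.9% at day 50 (16.9%), against 8.34% to 13% and 6.71% to 11% on the arms. At these peaks the fold depends on the ChIP reads alone.

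X peaks also rested on fewer ChIP reads. The median pileup of H3K4me1 was 44 reads on X at day 10 and 42 at day 50, against 52 to 53 and 50 to 51 on the arms. For H3K27ac the scaled median was 48.2 and 50.2, against 56.7 to 58.6 and 60.1 to 62.0. The lowest pileup at the lowest background was 28 and 27 reads for H3K4me1 on X, against 29 and 27 over the arms. The part of these lower read numbers in the lower H3K4me1 density of X was not tested. Copy number and chromosome cannot be told apart, since every sample was male.

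**Figure D2:**
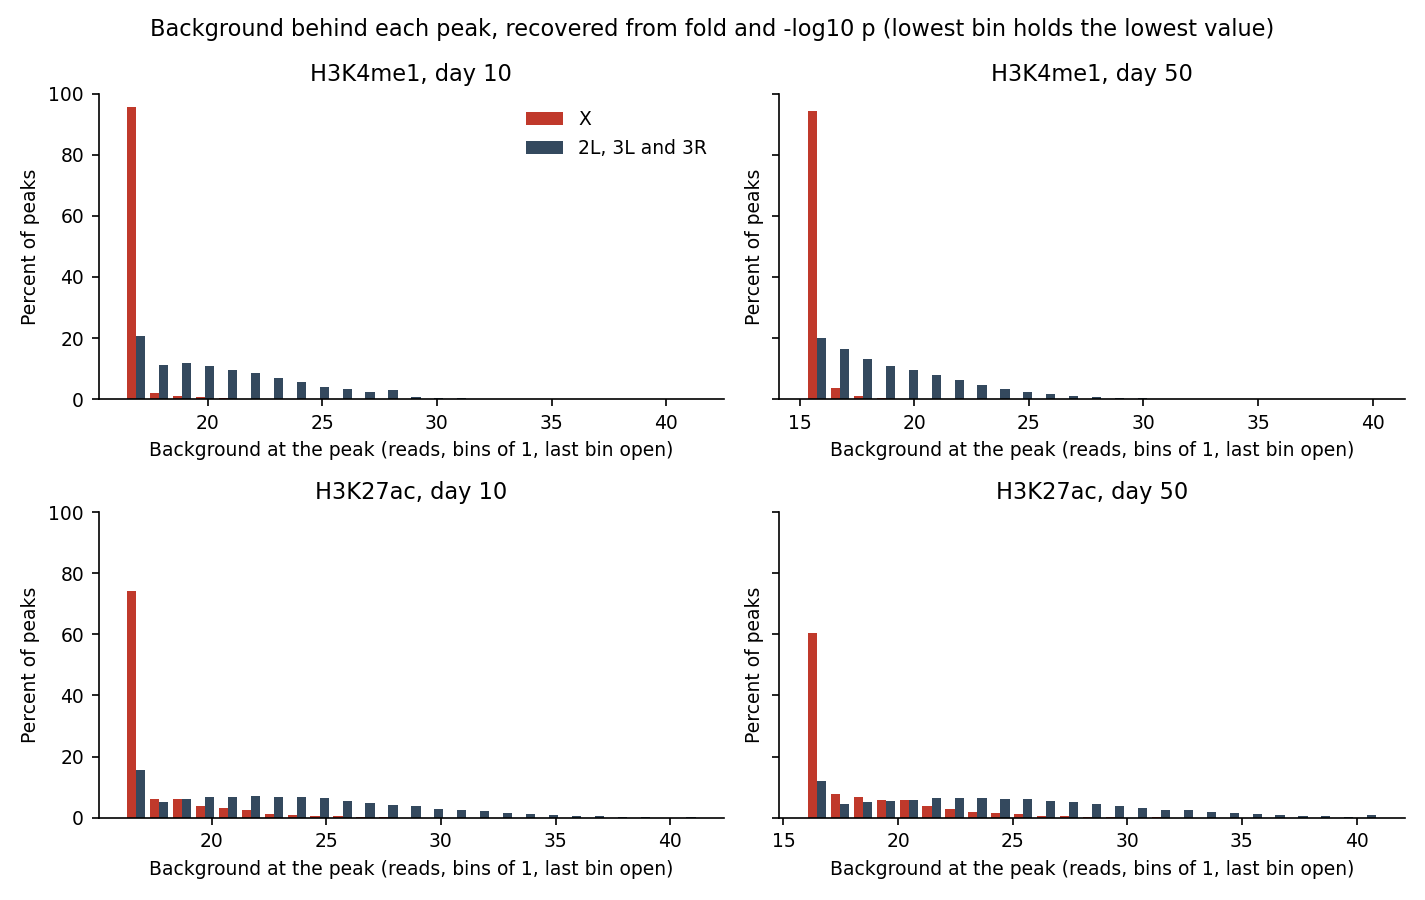
Share of peaks (vertical axis, percent) by the background behind the peak (horizontal axis, reads in bins of 1, last bin open) in the 4 lists, for X and for 2L, 3L and 3R together. The lowest bin holds over 90% of the X H3K4me1 peaks, and 74.2% and 60.4% of the X H3K27ac peaks at day 10 and day 50. The arms are spread over higher values.

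Peaks at the lowest background were also described apart, a choice made after the data were seen. It keeps most X peaks and few peaks of the arms (93.0% of X H3K4me1 peaks at day 10 against 8.62% to 14.4%), so the peaks kept were selected differently on X and on the arms. At day 10 the median fold of such H3K4me1 peaks was 2.59 on X and 2.99, 2.99 and 3.05 on 2L, 3L and 3R. At day 50 it was 2.64 on X and 3.04, 3.08 and 3.08. On the arms, H3K4me1 peaks above the lowest background had a median fold of 2.45 at day 10, below the 2.99 of those at it. For H3K27ac the medians were 2.86 on X and 2.78, 2.86 and 2.86 on the arms at day 10, and 3.02 on X and 3.02, 2.96 and 3.11 at day 50.

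Median widths on X were 288 bp for H3K4me1 at both ages and 270 and 276 bp for H3K27ac. The arms had 289 to 299 and 287 to 300 bp for H3K4me1, and 271 to 286 and 278 to 294 bp for H3K27ac. X was thus slightly below each arm, except for H3K4me1 at day 50, where it was inside their range. In the order of the lists, X minus the mean of the arms was -6.33, -4.67, -8 and -8.67 bp. The SD between arms was 5.03, 6.66, 7.55 and 8.33 bp. Broad H3K4me1 peaks were more frequent on X. Those of at least 1000 bp were 500 of the X peaks at day 10 (8.00%, interval 7.34% to 8.70%), against 4.89%, 4.92% and 5.44% on the arms. At day 50 they were 436 (7.82%), against 5.17%, 5.23% and 5.95%. For H3K27ac the share was 2.01% and 2.13% on X, inside the range of the arms (1.51% to 2.64% and 1.44% to 2.65%).

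The widest H3K4me1 peak on X covered 7212 bp inside trr, a methyltransferase of the family that writes H3K4me1, at day 10 (chrX:1882042-1889253, build BDGP6). At day 50 it covered 6812 bp (chrX:1882017-1888828), and its fold was 3.51 at day 10 and 4.49 at day 50. Neither peak overlapped H3K27ac. The next at day 10 were 5905 bp in pcx (pecanex) and 5201 bp in nej, the fly CBP that acetylates H3 at lysine 27, and at day 50 they were 5358 bp in HUWE1, a ubiquitin ligase, and 5180 bp in Pi4KIIIalpha, a lipid kinase. The widest H3K27ac peaks were in Unc-76, an adaptor of the kinesin motor (3441 and 3190 bp at day 10 and day 50), and in hang, a zinc finger protein of ethanol tolerance (3345 and 3303 bp).

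At day 10 the H3K4me1 peak of highest fold on X was a peak of 1847 bp in br (broad), an ecdysone-response transcription factor, at chrX:1619268-1621114, with a fold of 4.60 and 79 reads. The gene Mur2B spans the same interval. The others of the 5 highest were near Rilpl (4.43) and Atf3 (4.37), a stress-response transcription factor, and inside dsh (4.31), the Wnt pathway adaptor dishevelled, and Raf (4.26), the MAP kinase kinase kinase. At day 50 the dsh peak ranked first (chrX:11358386-11358577, fold 5.29, 85 reads), ahead of Top3beta (4.80), br (4.55), CG14434 (4.55) and trr (4.49). The br, dsh and trr peaks were thus in the list at both ages, and dsh and trr had the higher fold at day 50.

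H3K27ac reached higher folds. At day 10 the highest were CG17896 (6.37, chrX:491102-493532), CG14434 (5.77), Edem1 (5.66), which acts in endoplasmic reticulum protein disposal, cyr (5.55) and CG4404 (5.55). The cyr and CG4404 peaks overlapped no H3K4me1 at either age. At day 50 the highest was at MKP-4, a phosphatase of MAP kinases, with 6.50 against 3.70 at day 10. It was followed by Srx, sulfiredoxin, which repairs oxidised peroxiredoxin (6.33 against 5.33), Edem1 (6.29), a peak inside roX1 (6.10 against 4.21), and DENR, a factor of translation reinitiation (6.04 against 4.84).

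X peaks lay more often inside genes. A peak was placed by its centre within 500 bp of a gene end, further inside a gene body, or between genes. Gene bodies held 78.8% of the X H3K4me1 peaks at day 10 and 78.2% at day 50, against 69.3% to 71.5% and 69.4% to 71.0% on the arms. They held 72.0% and 70.1% of the X H3K27ac peaks, against 62.2% to 65.4% and 60.4% to 62.7%. Between genes lay 9.74% and 8.44% of X H3K4me1 peaks and 4.05% and 3.94% of X H3K27ac peaks. Each of these shares was below those of all 3 arms, although protein-coding genes span 70.7% of X and 70.8% of 3R.

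The overlap of the marks on X ran in opposite directions for the 2 marks. Of the X H3K4me1 peaks, 44.3% (interval 43.1% to 45.6%) overlapped an H3K27ac peak at day 10, against 39.5%, 41.6% and 39.3% on 2L, 3L and 3R (40.1% over the whole list). At day 50 this was 48.7% (47.4% to 50.0%), against 38.3%, 40.3% and 39.2% (40.1% over the whole list). Of the X H3K27ac peaks, 59.8% (58.4% to 61.2%) overlapped H3K4me1 at day 10, against 65.8%, 69.7% and 71.9% (68.2% over the whole list). At day 50 it was 59.1% (57.7% to 60.5%), against 67.8%, 69.1% and 71.9% (68.3% over the whole list). Thus acetylated sites on X had H3K4me1 less often than on each arm, at both ages. The 2 shares are not independent, since both count the same overlaps over the peaks of 1 mark or the other. X had 1.29 H3K4me1 peaks for each H3K27ac peak at day 10 and 1.14 at day 50. The arms had 1.61 to 1.77 and 1.67 to 1.78. The part of these peak numbers in the opposite directions was not tested. Among peaks at the lowest background, a selection that keeps few peaks of the arms, the difference had the opposite sign, with 54.4% of X H3K27ac peaks overlapping H3K4me1 against 47.3% over the arms at day 10, and 44.7% of X H3K4me1 peaks overlapping H3K27ac against 59.1%.

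H3K27ac peaks without H3K4me1 made up a larger share on X. Of the 3831 X H3K27ac peaks at day 10 that also had a peak at day 50, 1270 (33.2%, interval 31.7% to 34.7%) overlapped no H3K4me1 at either age, against 23.8%, 23.0% and 20.6% on the arms. On X 51.0% of these 1270 lay within 500 bp of a gene end, against 17.1% of the 2561 with H3K4me1. The arms showed the same pattern, with 52.8%, 53.8% and 59.8% of such peaks at gene ends. The median fold on X was 3.02, and that of the peaks with H3K4me1 was 2.79, and on each arm the peaks without H3K4me1 also had the higher median. When the peaks of all 4 lists were merged, X had 8482 regions, of which 13.6% held H3K27ac at both ages and no H3K4me1, against 6.95%, 7.25% and 5.89% on the arms. Regions with H3K4me1 at both ages and no H3K27ac were 20.0% on X, against 26.7%, 26.6% and 28.4%. Regions in all 4 lists were 23.0% on X, inside the arms' range of 21.6% to 23.7%.

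**Figure D3:**
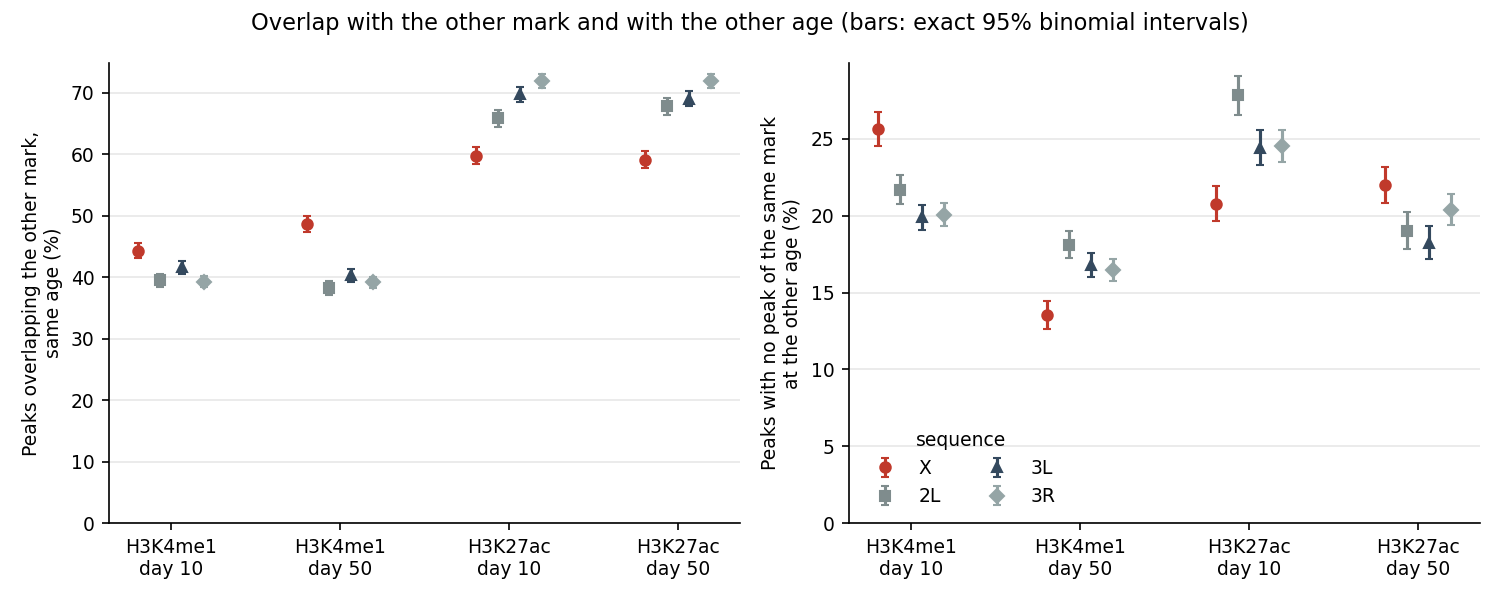
Share of peaks overlapping the other mark at the same age (left) and share with no peak of the same mark at the other age (right), in percent, for X, 2L, 3L and 3R in the 4 lists, with exact 95% binomial intervals. The X H3K27ac peaks overlap H3K4me1 at 59.8% and 59.1%, below all 3 arms, and 25.6% of X H3K4me1 peaks at day 10 have no peak at day 50.

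Between the ages, H3K4me1 coverage of X was lower at day 50 and H3K27ac coverage higher. H3K4me1 peaks covered 2743 kb of X at day 10 and 2433 kb at day 50, a difference of -11.3%, against -3.70%, -3.02% and -2.69% on 2L, 3L and 3R. H3K27ac peaks covered 1648 kb and 1722 kb, a difference of 4.49%, against -7.93%, -6.05% and -2.83%. The X thus stood below each arm for H3K4me1 and above each arm for H3K27ac. For H3K27ac this depended on the threshold. In the stronger 50% of each list, ranked by −log10 q, the difference was -0.954% on X and -3.80% over the arms, and for peaks with a fold of at least 3 it was 19.2% on X and 21.0% over the arms. For H3K4me1 with a fold of at least 3 it was 2.66% on X and 5.13% over the arms.

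The H3K4me1 difference was spread along X. In 1 Mb bins, 22 of the 22 X bins that were not gene-poor had less H3K4me1 at day 50, with a mean difference of -1.38 ± 0.543 percentage points of the bin (SD over bins; range -2.82 to -0.58 points). On 2L 14 of 22 bins were lower, on 3L 18 of 23 and on 3R 21 of 29, with mean differences of -0.532 ± 0.782, -0.509 ± 0.713 and -0.430 ± 0.714 points. The X bin from 1 to 2 Mb, which holds br and futsch, had the largest difference, from 22.8% to 20.0% covered. For H3K27ac 14 of the 22 X bins were higher at day 50, with a mean of 0.324 ± 0.731 points, and 5 of 22, 6 of 23 and 11 of 29 bins of the arms. Neighbouring bins share their libraries, so these counts describe the 2 lists.

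**Figure D4:**
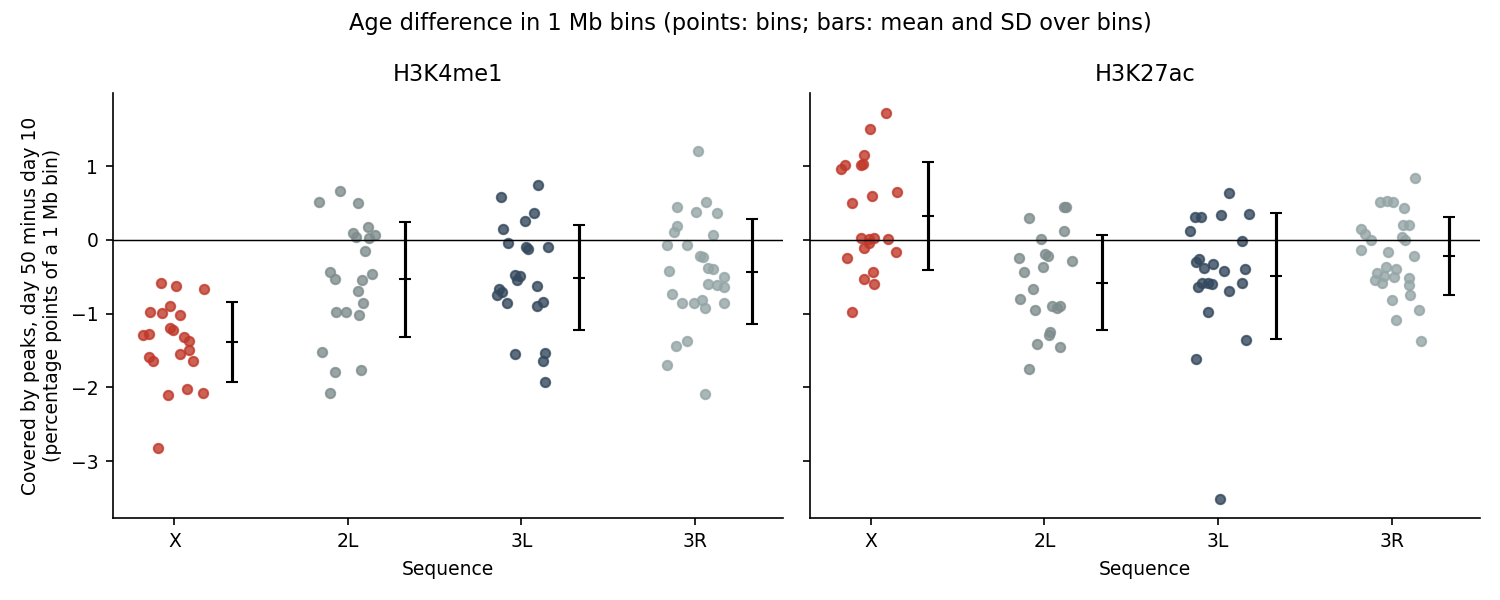
Percent of each 1 Mb bin under peaks at day 50 minus day 10 (vertical axis, percentage points) for X, 2L, 3L and 3R (horizontal axis), with gene-poor bins left out, points for bins and bars for the mean and SD over bins. All 22 X bins lie below 0 for H3K4me1, and 14 of 22 lie above 0 for H3K27ac.

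Peaks present at 1 age only were mostly weak and narrow. Of the X H3K4me1 peaks at day 10, 1603 (25.6%) had no peak at day 50, against 19.9% to 21.7% on the arms (20.6% over the whole list). The difference from the mean of the arms, 5.08 points, was 2.79 points at −log10 q of at least 5 and 1.44 points with equal numbers of peaks per list. Of those at day 50, 754 (13.5%) had none at day 10, against 16.5% to 18.1% (16.8% over the whole list). The 1603 peaks had a median fold of 2.24 and a width of 187 bp, against 2.70 and 348 bp for those with a partner. For H3K27ac 1006 (20.8%) of the X peaks at day 10 had none at day 50, against 24.4% to 27.8% (24.0% over the whole list), and 1077 (22.0%) at day 50 had none at day 10, against 18.3% to 20.4% (20.0%).

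Peaks matched 1 to 1 between the ages differed little in fold for H3K4me1. Of 3763 such X pairs, 49.5% had the higher fold at day 50, against 52.1%, 53.2% and 53.4% on the arms. The day 50 fold was at least 1.5 times the day 10 fold in 10 X pairs (0.266%), against 2.45% to 2.86% on the arms. The day 10 fold was at least 1.5 times the day 50 fold in 8 X pairs (0.213%), against 1.83% to 2.29%. Large differences in either direction were thus rarer on X. The fold depends on the background as well as on the ChIP reads. At day 10 the background was at its lowest value for 93.0% of X H3K4me1 peaks, against 8.62% to 14.4% on the arms. The part of the background in the rarity of large differences on X was not tested. For H3K27ac 64.6% of 3365 X pairs had the higher fold at day 50, against 57.6%, 57.7% and 59.8%. At gene ends this was 75.3% of 983 X pairs, against 67.7%, 65.3% and 69.6%. The day 50 fold was at least 1.5 times that of day 10 in 75 of the 3365 X pairs (2.23%), a lower share than on 2L, 3L and 3R (4.44%, 3.83% and 4.63%). The day 10 fold was at least 1.5 times that of day 50 in 24 X pairs (0.713%), also a lower share (2.58%, 2.22% and 1.56%). The part of the background in these lower H3K27ac shares was not tested either. At day 10 it was at its lowest value for 66.7% of X H3K27ac peaks, against 8.34% to 13% on the arms. The median difference of the 983 X pairs at gene ends was 0.14 on the log2 scale, the same order as on 2L, 3L and 3R (0.11, 0.11 and 0.14).

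Counted by gene, more X genes had less H3K4me1 at day 50 than had more. Of the 2197 protein-coding X genes, 612 (27.9%) had a higher share of their region under H3K4me1 at day 50 and 1021 (46.5%) a lower one. Over all 13946 genes the shares were 39.5% and 36.7%, and on the arms 38.5% to 42.9% were higher and 33.9% to 35.7% lower. The mean difference was -0.791 percentage points on X, against 0.822, 0.796 and 1.01 on 2L, 3L and 3R. An excess of at least 10 points at day 50 occurred in 46 X genes (2.09%; 6.50% over all genes) and a deficit of that size in 81 (3.69%; 2.47%).

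For H3K27ac 1095 X genes (49.8%; 47.1% over all genes) were higher at day 50 and 429 (19.5%; 18.5%) lower, shares close to those of all genes. Excesses of at least 10 points at day 50 were found in 229 X genes (10.4%; 6.61% over all genes), against 4.56% to 6.65% on the arms, and deficits in 10 (0.455%; 0.832%). The mean difference was 2.50 points on X, against 1.41, 1.46 and 1.94. In the upper 50% of peaks by −log10 q it was 1.37 points on X and 1.27 over the arms.

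The lower H3K4me1 coverage at day 50 was most marked in long genes. The longest 10% of genes were taken for each sequence apart. The cut was 17.8 kb on X and 13.6, 14.1 and 14.1 kb on 2L, 3L and 3R, so the classes differ in gene length. In the 220 longest X genes H3K4me1 coverage was 928 kb at day 10 and 707 kb at day 50. The difference was -23.8%, against -12.3%, -11.4% and -11.2% in the longest genes of the arms. In the other genes it was -3.84% on X, and 6.50%, 6.43% and 6.67% on the arms. H3K27ac was lower at day 50 in long genes on X and on the arms (-15.8% on X, -14.4% to -19.9% on the arms) and higher in the other genes (19.4% on X, 16.5% to 20.5%). In summed covered bases of H3K27ac the X was thus within the range of the arms in both classes. The mean H3K27ac difference per gene region was -0.71 points in long X genes, against -1.26, -0.918 and -1.04 on 2L, 3L and 3R. In the other genes it was 2.86 points on X, against 1.71, 1.73 and 2.27. By that measure X was above each arm in both classes.

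Among single X genes, the largest excess of H3K4me1 at day 10 was in Mur2B (26.8 kb covered at day 10, 19.1 kb at day 50), which spans br. It was followed by CG43867 (19.0 and 12.5 kb), futsch (14.9 and 9.03 kb), a microtubule-binding protein of axons and synapses, Sh (14.0 and 8.45 kb), a Shaker-type potassium channel, Rab3-GEF (6.03 and 1.75 kb), an exchange factor of synaptic vesicles, and hiw (12.1 and 8.45 kb), a ubiquitin ligase that limits synaptic growth. More H3K4me1 at day 50 was found in nonC (7.74 and 9.52 kb), the fly Smg1 kinase, and in ppk28 (0.157 and 1.65 kb), a water taste channel. It was also found in sl (1.83 and 3.16 kb), a phospholipase C gamma, in l(1)G0020 (2.51 and 3.8 kb) and in CG14221 (0.456 and 1.66 kb). The difference was -7703 bp in Mur2B and 1776 bp in nonC.

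H3K27ac was more extensive at day 10 in CG43867 (27.3 and 19.0 kb), in X11Lbeta (10.7 and 4.24 kb), an adaptor that binds the amyloid precursor-like protein, in Ca-alpha1T (8.98 and 3.21 kb), a T-type calcium channel, in kek5 (10.5 and 5.17 kb), in Ten-a (6.75 and 2.38 kb), a teneurin of synaptic partner matching, and in Sh (14.6 and 10.2 kb). It was more extensive at day 50 in e(y)3 (2.50 and 5.02 kb), a coactivator of the Brahma remodelling complex, htk (1.29 and 3.12 kb), Pfrx (4.75 and 6.52 kb), a regulatory enzyme of glycolysis, and tyf (1.43 and 3.19 kb), which promotes translation of per in clock neurons. Gclc (1.73 and 3.38 kb), the catalytic subunit of glutathione synthesis, and CG12236 (0.891 and 2.54 kb) completed these 6.

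The machinery of dosage compensation was marked on X at both ages. Of the roX1 region, H3K4me1 covered 16.2% at day 10 and 20.6% at day 50, while H3K27ac covered 12.8% and 17.5%. The H3K27ac peak inside roX1 named above lay at chrX:3861534-3862336. The roX2 region had 36.7% and 31.1% under H3K4me1, and 28.8% and 40.7% under H3K27ac. The gene mof had 44.9% and 42.5% under H3K4me1, and 23.3% and 38.3% under H3K27ac. All 3 X members of this list thus had more H3K27ac at day 50, as did 1095 of the 1526 X genes with a peak, and 1 had more H3K4me1. The 7 members encoded on the autosomes, such as msl-2 (9.41% and 18% under H3K27ac), also had more H3K27ac at day 50, so the direction was shared by X and autosomal members.

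In X-linked genes of excitability and synapse, H3K4me1 was lower at day 50 in 22 of 25 (46.5% of all X genes), higher in 2 and absent at both ages in nAChRalpha7, a nicotinic receptor subunit. The median difference was -2.06 points, beside -1.07 over the X genes with a peak. This list was chosen with earlier results of these data known, so its counts are no independent contrast with all X genes. It holds futsch and Sh, which are among the 6 X genes with the largest H3K4me1 excess at day 10. The potassium channel eag had 5.04% at day 10 and 1.82% at day 50. The sodium channel para had 4.37% and 1.95%. The calcium sensor Frq2 had 10.1% and 5.73%, and its H3K27ac went from 13.5% to 4.40%. The genes stnA and stnB, vesicle-recycling proteins read from 1 transcript, share a region with 17.7% and 9.12%. Those with a higher value were shi, the dynamin of vesicle recycling (10.6% and 13.1%), and cac, the presynaptic calcium channel (1.07% and 1.11%).

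For H3K27ac 17 of these 25 genes were lower at day 50 and 7 higher, with a median difference of -0.995 points. Over all X genes 19.5% were lower and 49.8% higher, and among the 220 longest X genes 114 were lower and 70 higher. The largest differences towards day 50 were in tay (3.37% and 14.9%) and comt (9.22% and 17.2%), the fly NSF. The median over X genes with a peak was 2.39 points. X genes of the longest 10% had less of both marks at day 50, and the part of gene length in the values of this list was not tested.

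**Figure D5:**
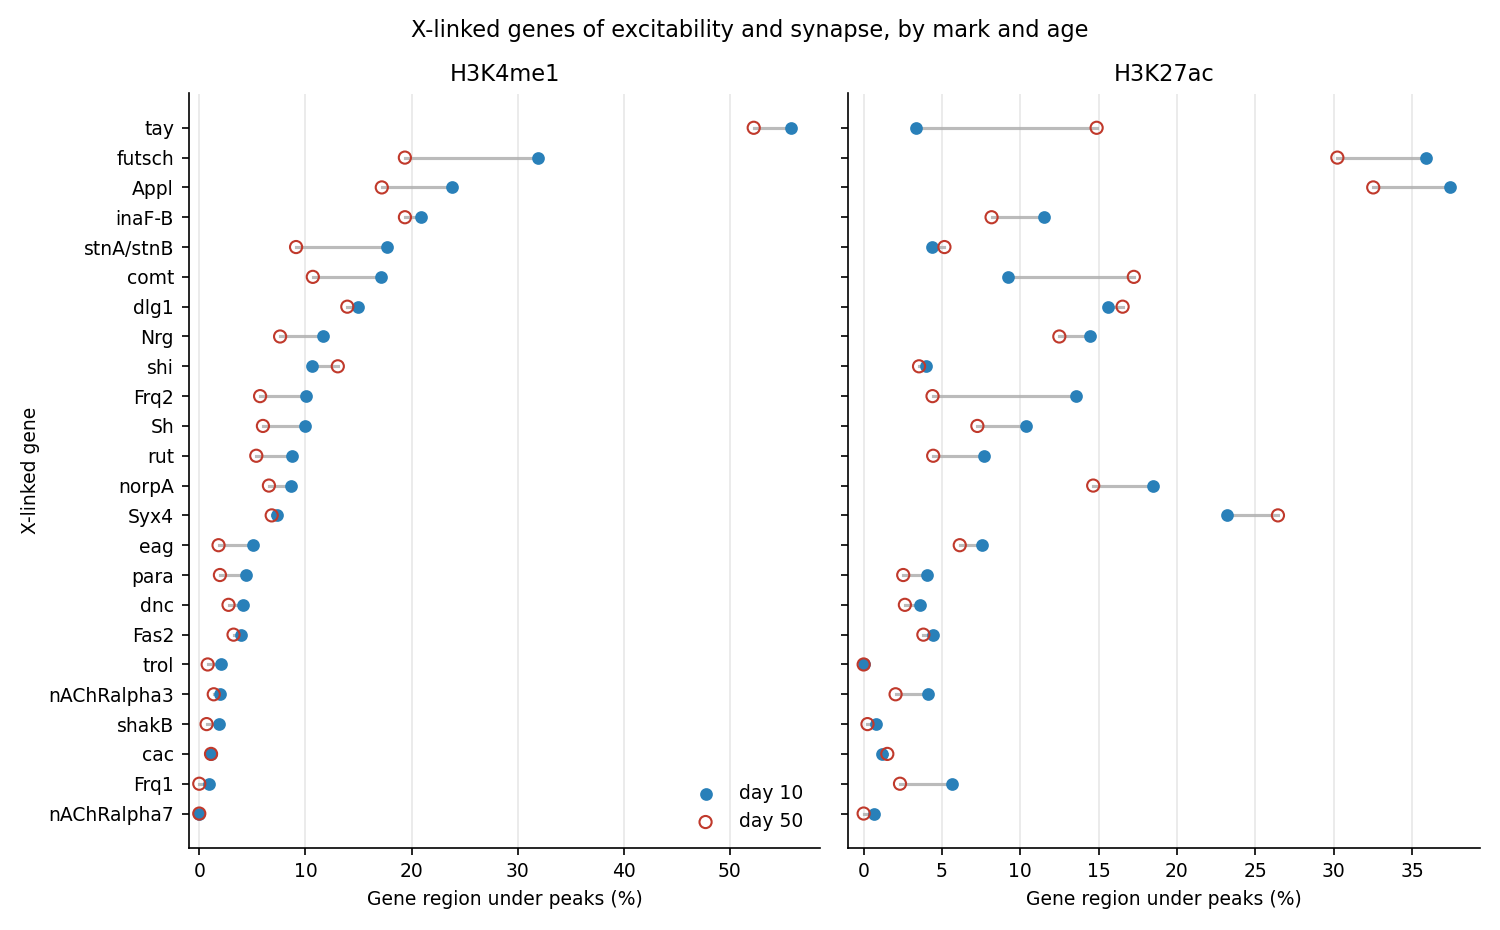
Percent of the gene region under peaks (horizontal axis) at day 10 (filled) and day 50 (open) for X-linked genes of excitability and synapse (vertical axis), H3K4me1 left and H3K27ac right; stnA and stnB share 1 line. For H3K4me1 the day 50 point lies to the left of the day 10 point in 21 of the 24 lines, and for H3K27ac tay and comt have the largest differences towards day 50.

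The list of X-linked transcription factors and other regulators, which includes N, Sxl and elav, was also chosen with earlier results of these data known. In it H3K4me1 was lower at day 50 in 16 of 17 and higher in 0, and ovo, a germline factor, had no peak of either mark. The median difference was -2.0 points, beside -1.07 over the X genes with a peak, of which 1021 of 1636 were lower. Among the longest 10% of X genes, which include br, ct and Lim1, 186 of 220 were lower, with a mean difference of -2.25 points. The part of gene length in the values of this list was not tested. The homeobox gene oc had 11.1% and 4.94%, the Runt factor run 11.6% and 7.66%, and sd, the partner of Yorkie, 18.6% and 13.8%. In trr (70.2% and 69.1%) and nej (43.9% and 41.1%), which act on the 2 marks themselves, the differences were -1.15 and -2.79 points. H3K27ac was higher at day 50 in 5, lower in 6 and absent at both ages in 6. Over all X genes 49.8% were higher and 19.5% lower, and 69.5% had an H3K27ac peak at either age. The neuronal RNA-binding gene elav had 21.7% and 19.7% under H3K4me1 and 24.0% and 28.7% under H3K27ac.

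The 14 X-linked genes of cytosolic ribosomal proteins had H3K27ac peaks at both ages, higher at day 50 in 10 and lower in 4, with a median difference of 2.19 points. Over the X genes with a peak 1095 of 1526 were higher, with a median of 2.39 points, so the list was near that background. RpS15Aa went from 10.4% to 22.4%, RpS19a from 32.3% to 43.7% and RpL22 from 62.4% to 71.6%. Their H3K4me1 was higher in 5, lower in 7 and absent in RpL37-1 and RpS14b. RpS14a and RpS14b are near-identical neighbours, so reads may be split between them.

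Of the 7 X-linked eye pigment genes, H3K4me1 was lower at day 50 in 4, higher in cm (27.2% and 33.5%) and absent in w and v. The gene w (white), which is disrupted in this strain, had 1.37% under H3K27ac at day 10 and 0.979% at day 50. H3K27ac was higher in 3 and lower in 4, with cm (23.6% and 40.9%) and dor (13.8% and 29.7%), both of vesicle transport to lysosomes, the furthest up. Over the X genes with a peak, 1095 of 1526 were higher for H3K27ac and 1021 of 1636 lower for H3K4me1. Of the X-linked clock genes, per (period) had 38% and 44.7% under H3K4me1 and 22.2% and 28.4% under H3K27ac, so both were higher at day 50. The clock kinase sgg had 27.8% and 21.3%, and 25.9% and 26.7%. Cyp4g1, a cytochrome P450 gene that was placed in the same list, had no peak of either mark.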

How the data were processed

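The 16 samples (8 groups of 2) were profiled by ChIP-seq, and the deposited peaks came as 4 narrowPeak lists, 1 per mark and age. The peak names show that both replicates were pooled. Tools listed in the submitters' processing notes, without roles, were MACS2 2.1.1, STAR 2.5.3a, deepTools, Trim Galore and FastQC, with the build BDGP6. The fold enrichment (a ratio), the −log10 p, the −log10 q and the score of each peak were deposited by the authors, whose peak caller made them. The summit offset was deposited too and was not used. Library depth was not given in the sources used here.

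Pileup and background were solved from the fold and −log10 p of each peak (pseudocount 1, Poisson upper tail). The solver recovered 100% of 1500 simulated peaks. Overlap meant at least 1 shared base. A RefSeq table (Release 6 assembly, 13946 protein-coding genes) gave symbols, gene positions and sequence lengths. It holds no strand or exons, so neither promoters nor exons could be placed. The length of each sequence was taken as the highest end of an annotated gene. All shares have Clopper-Pearson 95% intervals. No test was made across peaks, since peaks of 1 list share their libraries.

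Named genes were, by mark and age, the 6 X genes that exceeded the other age by most covered bases, the 5 X peaks of highest fold and the 3 widest in each list (each named by a noncoding gene only where no protein-coding gene holds its centre), and the X-linked members of the gene lists. Members and lists were chosen with earlier results of these data known. Overlapping gene regions share peaks. Of the genes these rules name, 1 X gene and some genes of the tissue check are not reported here. Alternatives were other thresholds on q and fold, equal peak numbers, other overlaps, other gene regions, each arm left out, and peaks at the lowest background. A comparison of sequence motifs was planned and not run. Python 3.11.15 with pandas 2.3.3, numpy 2.4.6 and scipy 1.17.1 was used.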

Additional observations from a re-analysis of the deposited data

How the results depend on the processing

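No paired analysis was possible because each list pools both replicates and no result comes from a test. Values below are X against the mean of 2L, 3L and 3R, as log2 ratios for fold, width and density and as percentage points otherwise. Of 214 alternatives for 24 results, 113 moved the value by no more than the spread between arms (for shares, the counting interval). Another 70 moved it further, and 31 turned the sign of a value that exceeded that spread as deposited. Where the deposited value was within the spread, a turn of sign was counted by the size of the move alone. Leaving out an arm moved 1 result: the H3K27ac overlap with H3K4me1 at day 10 ranged from -11.1 to -7.99 points. The cause of the moves below was not tested, except that stricter thresholds leave fewer peaks by construction. No list of a single replicate was analysed here.

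Peaks per Mb of H3K4me1 at day 10 (-0.35) moved to -0.42 at −log10 q of at least 5, -0.58 in the upper 50%, -0.63 at a fold of at least 3, -0.54 with equal numbers, -0.46 without gene-poor bins and -0.17 per 100 genes. At day 50 (-0.45) they moved to -0.67 in the upper 50%, -0.58 at a fold of at least 3, -0.54 with equal numbers, -0.55 without gene-poor bins and -0.27 per 100 genes. Those of H3K27ac at day 10 (0.03) moved to 0.067 at −log10 q of at least 5, 0.14 in the upper 50%, 0.66 at a fold of at least 3, -0.071 without gene-poor bins and 0.20 per 100 genes. At day 50 (0.16) they moved to 0.61 at a fold of at least 3, 0.053 without gene-poor bins and 0.33 per 100 genes.

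The median fold of H3K4me1 at day 10 moved to 0.0089 with equal numbers and 0.020 at −log10 q of at least 5, and at day 50 to 1.7e-05 at −log10 q of at least 5. That of H3K27ac at day 10 (0.14) moved to 0.12 in the upper 50%, 0.027 at a fold of at least 3 and 0.014 at the lowest background, and at day 50 (0.12) to 0.137, 0.147 and 0.033 at −log10 q of at least 5, in the upper 50% and at a fold of at least 3. The median fold of H3K4me1 (0.04 at both ages) turned at day 10 to -0.0068 in the upper 50% by −log10 q, -0.055 at a fold of at least 3 and -0.218 at the lowest background. At day 50 it turned to -0.0020, -0.069 and -0.213 under the same settings and to -0.0048 with equal peak numbers. That of H3K27ac at day 50 (0.12) turned to -0.0046 at the lowest background. The median width of H3K4me1 at day 10 (-0.03) turned to 0.030 at −log10 q of at least 5, 0.097 in the upper 50%, 0.229 at a fold of at least 3, 0.087 with equal numbers and 0.084 at the lowest background. That of H3K27ac turned at day 10 to 0.0015 at −log10 q of at least 5, 0.065 with peaks joined within 500 bp and 0.179 at the lowest background, and at day 50 to 0.0082 in the upper 50%, 0.061 joined and 0.182 at the lowest background.

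The share of H3K4me1 peaks with H3K27ac at day 10 (4.19) moved to 2.64 at −log10 q of at least 5, 1.68 in the upper 50%, 7.10 at a fold of at least 3 and 1.10 with equal numbers, and turned to -14.5 at the lowest background. At day 50 (9.43) the same settings gave 6.24, 2.31, 7.66, 7.92 and -10.5. The share of H3K27ac peaks with H3K4me1 at day 10 (-9.38) gave -14.5, -19.9, -16.9, -15.3 and 7.07, and -7.25 with an overlap of 50% of the peak. At day 50 (-10.5) it gave -15.4, -21.2, -17.1, -12.5 and 4.82, and -7.10.

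The share with no peak at the other age turned for H3K4me1 to -0.323 at day 10 at a fold of at least 3, and at day 50 to 0.517 in the upper 50%, 0.911 at a fold of at least 3 and 1.83 at the lowest background. For H3K27ac at day 50 it turned to -0.876 at −log10 q of at least 5, -4.29 in the upper 50% and -10.5 at a fold of at least 3. The age difference in covered bases moved for H3K4me1 (-8.14) to -9.37 in the upper 50%, -2.47 at a fold of at least 3 and -5.93 with equal numbers. For H3K27ac (10.1) it moved to 2.85 in the upper 50% and turned to -1.77 at a fold of at least 3. The mean difference per gene region moved for H3K4me1 (-1.67) to -1.45 at −log10 q of at least 5 and -2.06 with the gene body alone, and for H3K27ac (0.898) to 0.091 in the upper 50% and 1.22 with the body alone.

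Without a pseudocount only 0.951% to 2.26% of peaks gave whole reads, so that alternative has no values. The motif comparison was not run, as no sequences of peaks or promoters were used here.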
